A study of Homo sapiens with 4 samples.

Results

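Transcripts of 8 primitive streak transcription factors, TBXT, MIXL1, EOMES, GSC, EVX1, LHX1, MESP1 and MESP2, were followed in undifferentiated HUES8 cells, a human embryonic stem cell line. The genes were chosen by name, and all 8 were found among the 59050 genes of the count table and kept whatever their count. RNA-seq had been made from 2 libraries labelled CPT2 KO and 2 labelled WT, all grown on Matrigel in mTeSR1 without differentiation. CPT2, carnitine palmitoyltransferase 2, is the inner mitochondrial enzyme that releases long-chain acyl groups from carnitine for oxidation, and the series title ties this enzyme's pathway to how definitive endoderm forms. All 4 libraries carry the treatment label WT. The sources used here do not give how CPT2 was disrupted, how many clones the CPT2 KO libraries came from, or whether replicates were separate cultures. The p-values therefore cover the spread among these 4 libraries alone, part or all of which may be technical.

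The primitive streak is the site where epiblast cells of the embryo leave pluripotency and become mesoderm and endoderm. Nodal, Wnt and BMP signals switch on its transcription factors. TBXT (Brachyury) and EOMES are T-box factors, MIXL1 is a paired-type homeodomain factor active across the streak, and GSC and LHX1 are homeodomain factors of the anterior streak and organizer. EVX1 is a homeodomain factor of the posterior streak, and MESP1 and MESP2 are basic helix-loop-helix factors of the mesoderm that emerges from it. In pluripotent stem cells these genes are ordinarily silent or low, and their rise marks entry into mesendoderm.

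The libraries labelled CPT2 KO held 20219396 and 16887789 counts and those labelled WT held 18356754 and 20460031, so that 1 count was worth 0.0485 to 0.0603 CPM, the count scaled to the effective size of its library. The CPT2 transcript ran against the labels, with 233 and 170 counts in the libraries labelled CPT2 KO, against 52 and 72 in those labelled WT (log2 fold change 1.78, SE 0.27, edgeR adjusted p = 0.0218). Each direction below is therefore stated between libraries as labelled. WT replicate 1 stood apart from the other 3 libraries, with chi-square values of 43.6 to 58.4 for each degree of freedom when its counts were compared with theirs, while the other pairs gave 11.4 to 14.0. Pluripotency transcripts were abundant in every library: the 15 genes of that list, POU5F1 and NANOG among them, summed to 10401 and 11563 CPM in the libraries labelled CPT2 KO, against 9654 and 10412 CPM in those labelled WT.

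TBXT, MIXL1, EOMES and GSC were each higher in both libraries labelled CPT2 KO than in either labelled WT, and EVX1 and MESP1 were lower in both. LHX1 and MESP2 overlapped between the groups. That made 4 of 8 genes higher without overlap, against 16.9% of all genes with a count, and 2 of 8 lower, against 16.0%. Summed over the 8 genes, transcripts reached 127 and 32.1 CPM in the libraries labelled CPT2 KO, against 11.2 and 7.86 CPM in those labelled WT. None of the 8 passed the test across all genes: 0 were called higher by edgeR at an adjusted p under 0.05, where 0.359% of tested genes were, and 0 were called lower, where 0.0569% were. At an unadjusted p under 0.05, edgeR gave 3 higher and 1 lower, against 4.88% and 4.16% of tested genes. DESeq2 called 4 higher and 0 lower, against 0.848% and 0.262% of tested genes, and limma-voom called 0 in each direction, against 0.159% and 0.0114%. TBXT and GSC count among the higher genes of DESeq2 and of edgeR at the unadjusted p. They reached the count filter only in the libraries labelled CPT2 KO. In bulk RNA, a larger share of cells with a transcript and more of that transcript per cell cannot be told apart.

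**Figure D1:**
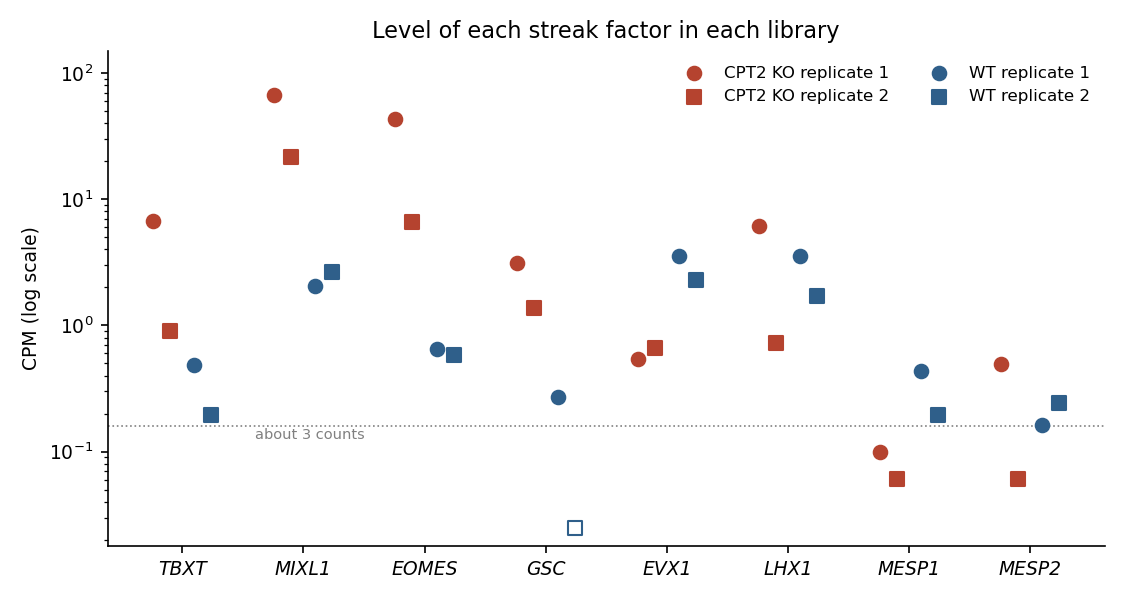
CPM (log axis) of each gene in each library, with the libraries labelled CPT2 KO in red and those labelled WT in blue; circles are replicate 1 and squares replicate 2, and the open square at the bottom marks 0 counts. TBXT, MIXL1, EOMES and GSC have both red points above both blue points, EVX1 and MESP1 have both below, and LHX1 and MESP2 are split.

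MIXL1, needed in mouse embryos for normal morphogenesis of streak-derived mesoderm and endoderm, was the most abundant of the 8, also per length, in both libraries labelled CPT2 KO. It had 1348 and 360 counts (66.7 and 21.7 CPM) in the libraries labelled CPT2 KO, against 38 and 55 counts (2.06 and 2.67 CPM) in those labelled WT. The groups were far apart, and the libraries labelled CPT2 KO differed from each other by a ratio of 3.08 (95% counting interval 2.74 to 3.46). The log2 fold change was 4.22 (SE 0.80, edgeR adjusted p = 0.344; DESeq2 adjusted p = 4.8e-05).

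EOMES, which in mouse embryos is required for definitive endoderm and for mesoderm to leave the streak, showed the largest fold change of the 6 tested genes. It had 867 and 109 counts (42.9 and 6.57 CPM) in the libraries labelled CPT2 KO, against 12 and 12 counts (0.650 and 0.582 CPM) in those labelled WT. Both libraries labelled WT gave nearly the same level, whereas replicate 1 labelled CPT2 KO stood 6.53-fold above replicate 2 (95% counting interval 5.35 to 8.05). The log2 fold change was 5.33 (SE 1.66, edgeR unadjusted p = 0.0589, adjusted p = 0.569; DESeq2 adjusted p = 0.00252).

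TBXT, the factor that in mouse embryos is required for posterior mesoderm and notochord, was high in a single library. It had 136 and 15 counts (6.73 and 0.904 CPM) in the libraries labelled CPT2 KO, against 9 and 4 counts (0.488 and 0.194 CPM) in those labelled WT. Replicate 1 labelled CPT2 KO exceeded replicate 2 by 7.45-fold (95% counting interval 4.36 to 13.7), and replicate 2 lay only a little above WT replicate 1. Its log2 fold change was 3.55 (SE 1.25, edgeR adjusted p = 0.523; DESeq2 adjusted p = 0.00724).

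GSC, the Goosecoid factor of the organizer, was near the limit of detection in the libraries labelled WT. It had 63 and 23 counts (3.12 and 1.39 CPM) in the libraries labelled CPT2 KO, against 5 and 0 counts (0.271 and 0 CPM) in those labelled WT, where 3 counts, the limit that a count of 0 allows, correspond to 0.146 CPM in replicate 2. The ratio between the libraries labelled CPT2 KO was 2.25 (95% counting interval 1.38 to 3.80), the smallest among the 4 genes that were higher in both. Its log2 fold change was 4.10 (SE 0.87, edgeR adjusted p = 0.101; DESeq2 adjusted p = 0.0101). TBXT and GSC reached the count filter in the libraries labelled CPT2 KO and in 0 of the 2 labelled WT.

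EVX1, a BMP-responsive factor of the posterior streak, went in the other direction. It had 11 and 11 counts (0.544 and 0.663 CPM) in the libraries labelled CPT2 KO, against 66 and 47 counts (3.58 and 2.28 CPM) in those labelled WT. The groups did not overlap and the libraries labelled CPT2 KO were alike, with a log2 fold change of -2.27 (SE 0.50, edgeR adjusted p = 0.117; DESeq2 adjusted p = 0.0536). Exons of the antisense gene EVX1-AS overlap 532 bases of EVX1 exons on the other strand, and since no source used here says whether counting used strand, reads of both cannot be told apart. EVX1-AS had 10 and 2 counts in the libraries labelled CPT2 KO, against 33 and 23 in those labelled WT.

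LHX1, a LIM-homeodomain factor needed for head formation in mouse embryos, was higher in replicate 1 and lower in replicate 2 labelled CPT2 KO than in both libraries labelled WT. It had 123 and 12 counts (6.09 and 0.723 CPM) in the libraries labelled CPT2 KO, against 65 and 35 counts (3.52 and 1.70 CPM) in those labelled WT. The log2 fold change of 0.47 (SE 0.95, edgeR adjusted p = 0.916) was smaller than its error. Exons of AC243773.1 overlap 367 bases of LHX1 exons on the other strand, and that gene had 0 to 5 counts in any library. Of the 5 partners of LHX1 in its LDB1 complexes, LDB1, LDB2 and SSBP2 to SSBP4, 0 were called in either direction. Of all tested genes, edgeR called 0.359% higher and 0.0569% lower. The median log2 fold change of the 5 partners was -0.14.

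MESP1 and MESP2, neighbours on chromosome 15 that act in cardiac mesoderm and in somite segmentation in mouse embryos, stayed below the count filter. MESP1 had 2 and 1 counts in the libraries labelled CPT2 KO, against 8 and 4 in those labelled WT, a pooled ratio of 0.265 (95% counting interval 0.0480 to 0.983). MESP2 had 10 and 1 counts in the libraries labelled CPT2 KO, against 3 and 5 in those labelled WT, a pooled ratio of 1.46 (95% counting interval 0.535 to 4.18). As paralogues they may share reads, so the split between them is uncertain.

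On GRCh38 (GENCODE 29, all protein coding), TBXT lies at chr6:166157656-166168700 on the minus strand, MIXL1 at chr1:226223618-226227054 on the plus strand and EOMES at chr3:27715949-27722711 on the minus strand. GSC lies at chr14:94768216-94770230 (minus), EVX1 at chr7:27242700-27250493 (plus), LHX1 at chr17:36936785-36944612 (plus), MESP1 at chr15:89748661-89751310 (minus) and MESP2 at chr15:89760591-89778754 (plus). Sequence upstream of the start, from RefSeq on GRCh38.p14, matched 6 of the 8 genes with 7 windows of 250 bases, TBXT having a window for each of its starts. The windows of the 4 genes that were higher in both libraries labelled CPT2 KO are shown with that of EVX1, which was lower, so that the start regions of genes with differences in opposite directions can be read beside each other. Each runs 5′ to 3′ on the strand of its gene and ends at the base before the RefSeq start, to which the distances given below refer. For each gene shown, that start lies inside the GENCODE span given above, so part or all of the window does too. Capitals mark the motif matches described after the windows.
MIXL1 (chr1:226223414-226223663, plus): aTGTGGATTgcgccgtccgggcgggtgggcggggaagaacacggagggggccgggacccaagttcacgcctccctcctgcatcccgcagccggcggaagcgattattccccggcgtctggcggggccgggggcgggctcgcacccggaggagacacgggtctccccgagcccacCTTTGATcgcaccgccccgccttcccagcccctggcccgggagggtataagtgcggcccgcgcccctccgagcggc
EOMES (chr3:27722324-27722573, minus): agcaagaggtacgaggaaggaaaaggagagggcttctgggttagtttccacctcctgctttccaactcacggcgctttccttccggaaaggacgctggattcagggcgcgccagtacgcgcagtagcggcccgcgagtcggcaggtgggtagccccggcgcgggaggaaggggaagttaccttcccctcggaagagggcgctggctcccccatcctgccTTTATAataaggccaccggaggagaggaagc
TBXT (chr6:166168656-166168905, minus): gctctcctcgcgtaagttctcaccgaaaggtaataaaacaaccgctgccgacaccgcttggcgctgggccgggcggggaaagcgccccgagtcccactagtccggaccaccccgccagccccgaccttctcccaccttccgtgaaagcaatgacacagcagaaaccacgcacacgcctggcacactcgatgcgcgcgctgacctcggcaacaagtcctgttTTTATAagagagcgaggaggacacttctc
GSC (chr14:94770114-94770363, minus): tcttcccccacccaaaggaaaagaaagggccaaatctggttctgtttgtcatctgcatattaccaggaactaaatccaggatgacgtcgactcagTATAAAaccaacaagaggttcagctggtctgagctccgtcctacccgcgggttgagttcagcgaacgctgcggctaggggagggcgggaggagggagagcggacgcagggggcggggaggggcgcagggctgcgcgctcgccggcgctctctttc
EVX1 (chr7:27242552-27242801, plus): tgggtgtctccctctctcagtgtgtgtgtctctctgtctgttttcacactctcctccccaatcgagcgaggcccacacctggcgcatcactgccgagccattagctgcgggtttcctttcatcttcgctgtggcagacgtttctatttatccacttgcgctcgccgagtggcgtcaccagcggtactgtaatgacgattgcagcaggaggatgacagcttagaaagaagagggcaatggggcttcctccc

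A set of 5 motifs was searched on both strands: AATNCACA of the Nodal cofactor FOXH1, CTTTGAT of the Wnt effectors TCF and LEF, the T-box site AGGTGTGA, the bicoid-type homeodomain site TAATCC, and the TATA box TATAAA. The MIXL1 window held a FOXH1 match starting 249 bases before the start and a TCF/LEF match at 76 bases, which 2.89% and 2.26% of all 35116 windows hold. TATAAA was read on the strand of the gene 155 bases before the start of GSC. Its reverse complement TTTATA was read there 31 bases before the start of EOMES and 29 bases before that of TBXT. The full TATAAA thus lies on the strand opposite to these genes. The shorter TATAA, which was not searched, is read on the strand of the gene overlapping both matches, and also in the MIXL1 window. The share of all windows with TATAAA on either strand was 10.7%. The EVX1 window and the other window of TBXT held 0 of the 5 motifs, and MESP2 had a FOXH1 match at 155 bases. The MESP2 window (chr15:89776082-89776331, plus) lies wholly inside the GENCODE span of that gene. The T-box site, in 0.786% of all windows, and the bicoid-type site, in 5.62%, were in 0 of the 7. No matches overlapped. A match is a description of letters and not a binding site. The windows of MIXL1, EOMES, TBXT and GSC held 18 to 30 CpG dinucleotides, that of EVX1 held 13 and that of MESP2 held 6, against a median of 11 over all windows.

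Compared separately with the pair of WT libraries, both libraries labelled CPT2 KO were higher in the same 4 genes. For replicate 1 the ratio of CPM to the WT pair was 69.8 for EOMES, 28.0 for MIXL1, 24.4 for GSC and 20.2 for TBXT. For replicate 2 it was 10.7 for EOMES, 9.11 for MIXL1, 10.8 for GSC and 2.72 for TBXT, with 95% counting intervals of 6.82 to 17.4, 7.23 to 11.6, 4.03 to 36.5 and 1.21 to 6.20. Every one of these ratios was larger for replicate 1. In edgeR with replicate 1 alone against the WT pair, 4 of 8 genes were called higher, TBXT (adjusted p = 0.00465), MIXL1 and EOMES (both 1.3e-05) and GSC (0.0439), where 0.443% of tested genes were, and 0 lower, where 0.00540% were. With replicate 2 alone, 2 were called higher, MIXL1 (adjusted p = 0.00502) and EOMES (0.0290), where 0.126% of tested genes were, and 0 lower, where 0.00546% were. In these fits the lone library is assumed to vary like the WT pair, so the difference between the libraries labelled CPT2 KO does not enter. TBXT and GSC reached the count filter in 0 of the 2 WT libraries. They entered these fits only through the lone library labelled CPT2 KO, in which they were higher.

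EVX1 was lower in each, at a ratio of 0.188 (95% counting interval 0.0913 to 0.350) for replicate 1 and 0.229 (0.111 to 0.426) for replicate 2, and was called in neither fit (edgeR adjusted p = 0.332 and 0.554). LHX1 gave ratios of 2.38 (1.81 to 3.13) and 0.282 (0.141 to 0.515), on opposite sides of 1, and was called in neither (edgeR adjusted p = 0.822 and 0.651).

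**Figure D2:**
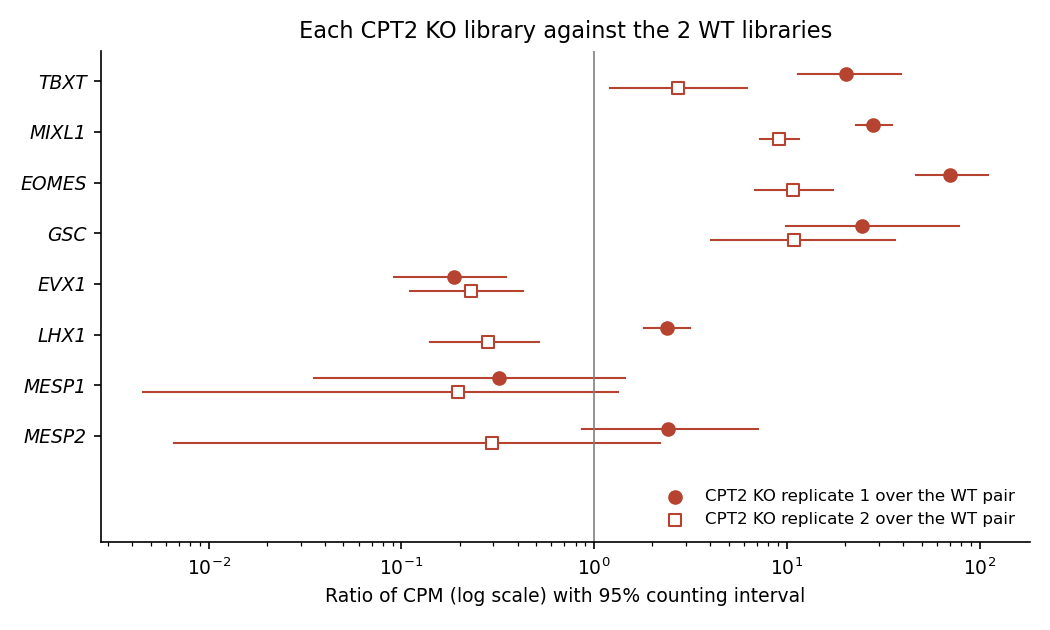
Ratio of CPM in each library labelled CPT2 KO to the 2 WT libraries together (log axis), with the 95% exact binomial interval for counting error; filled circles are replicate 1 and open squares replicate 2. TBXT, MIXL1, EOMES and GSC lie right of 1 for both libraries, EVX1 lies left of 1 for both, and LHX1 lies right of 1 for replicate 1 and left for replicate 2.

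Per length, the make-up of the 8 transcripts differed between the groups. As RPKM, the CPM divided by gene length in kilobases, MIXL1 stood at 32.9 and 10.7, EOMES at 11.7 and 1.80, TBXT at 2.56 and 0.344 and GSC at 2.47 and 1.10 in the libraries labelled CPT2 KO. There LHX1 followed at 1.25 and 0.148, MESP2 at 0.274 and 0.0333, EVX1 at 0.162 and 0.197 and MESP1 at 0.0418 and 0.0254. Within each library labelled CPT2 KO the order began with MIXL1 and EOMES, but each gene's range over the 2 libraries overlapped that of its neighbour in the order of mean RPKM, MIXL1 and EOMES included. In the libraries labelled WT, MIXL1 at 1.02 and 1.32 RPKM and EVX1 at 1.07 and 0.679 RPKM led, and their ranges overlapped. They were followed by LHX1 at 0.722 and 0.348 RPKM, whose range overlapped that of EVX1, and EOMES stood at 0.178 and 0.159 RPKM. The other 4 genes were at 0 to 0.214 RPKM there. MIXL1 made up 64.0% and 74.6% of the summed RPKM in the libraries labelled CPT2 KO, against 27.8% and 47.1% in those labelled WT. EVX1 made up 0.316% and 1.38%, against 29.2% and 24.3%.

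**Figure D3:**
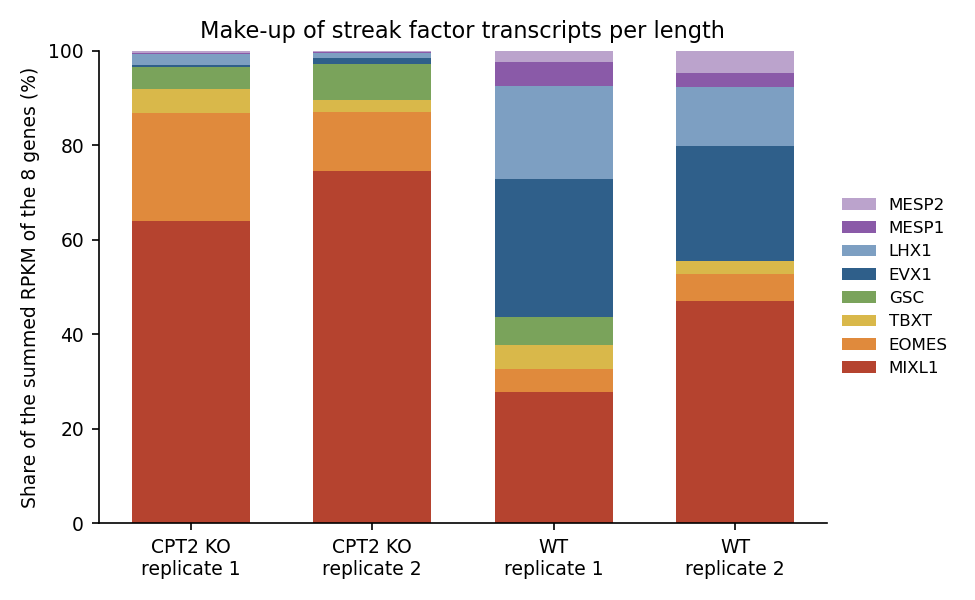
Share of each gene in the summed RPKM of the 8 genes (percent), a stacked bar per library, with the libraries labelled CPT2 KO left of those labelled WT. MIXL1 with EOMES fills most of the bars labelled CPT2 KO, while EVX1 and LHX1 take up far more of the bars labelled WT.

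The fold changes of TBXT, MIXL1, EOMES and GSC were positive and that of EVX1 negative in every setting run, while calls depended on the fit. EOMES was called in 4 of 15 other settings, MIXL1 in 4 of 15, TBXT in 3 of 14, GSC in 6 of 15, EVX1 in 2 of 15 and LHX1 in 0 of 15. With replicate 1 labelled CPT2 KO left out, the log2 fold change of EOMES was 3.40, that of MIXL1 3.19 and that of TBXT 1.42, and it was 6.11, 4.81 and 4.31 with replicate 2 left out. With WT replicate 1 left out, EOMES gave 5.43, MIXL1 4.06 and TBXT 4.33, and 0 of these 3 were called. GSC was called when either WT library was left out and EVX1 without WT replicate 2, so that 1 of 8 was called higher in each fit, where 0.516% of tested genes were without WT replicate 1 and 2.66% without WT replicate 2. In these fits the spread comes from the libraries labelled CPT2 KO, and the lone WT library is assumed to vary like them. The count of lower calls was 0 without WT replicate 1, where 0.161% of tested genes were called lower, and 1 without WT replicate 2, where 3.49% were. For GSC the log2 fold change was 8.48 without WT replicate 1, when the WT library left had 0 counts, so that it is no bound.

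**Figure D4:**
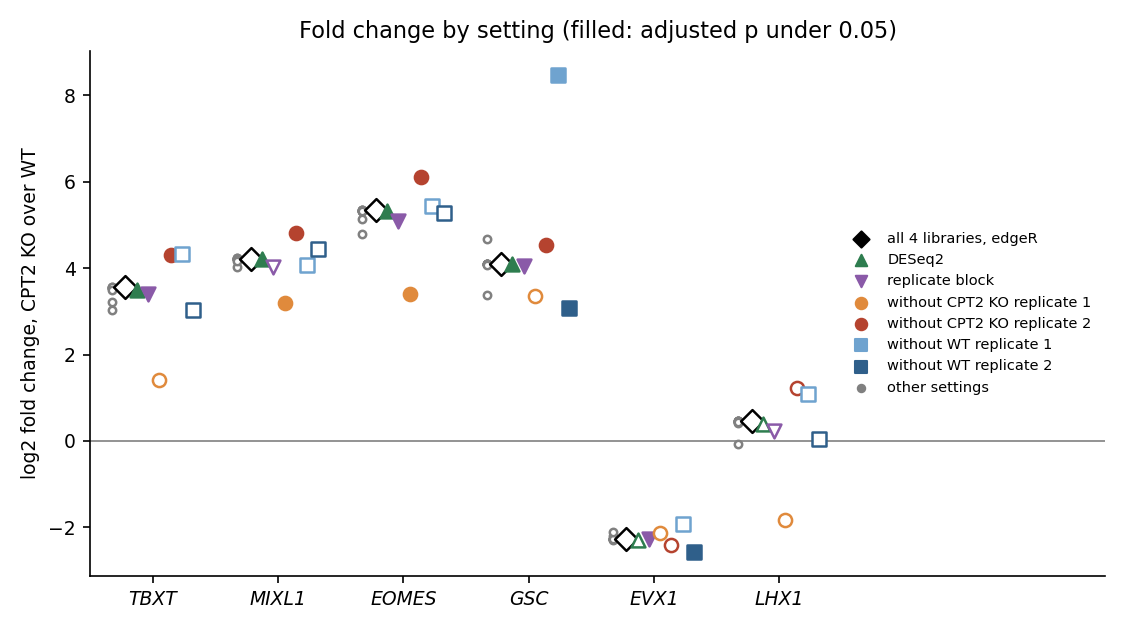
Log2 fold change, CPT2 KO over WT, of the 6 tested genes in each setting; symbols name the setting, small grey circles are the remaining ones, and a filled symbol has an adjusted p under 0.05. TBXT, MIXL1, EOMES and GSC stay above 0 and EVX1 below 0, while LHX1 lies on both sides.

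Most streak factors differed between the libraries labelled CPT2 KO. Of the 7 streak factors with at least 10 counts in that pair of libraries, 6 were at least 2-fold higher in replicate 1 than in replicate 2 and 0 were at least 2-fold lower, against 6.86% and 5.44% of 19480 genes. LHX1 differed by 8.42-fold (95% counting interval 4.65 to 16.7) and MESP2, with 10 against 1 counts, by 8.21-fold (1.17 to 356), while EVX1 gave 0.821 (0.323 to 2.09). Among definitive endoderm genes, 5 of 9 were at least 2-fold higher in replicate 1, FOXA2 by 12.5-fold, GATA6 by 8.68-fold, SOX17 by 5.40-fold, GATA4 by 3.09-fold and PRDM1 with 29 against 1 counts. The Nodal and Wnt inhibitors CER1, by 11.1-fold, and SP5, by 5.09-fold, and the ligands FGF17, by 26.2-fold, and FGF4, by 3.47-fold, did likewise. NODAL itself differed by 1.37-fold (95% counting interval 1.23 to 1.53), FGF8 by 1.24-fold, LEFTY1 by 0.976-fold and LEFTY2 by 1.12-fold, and 0 of 15 pluripotency genes differed by 2-fold. Differences of at least 2-fold were also found in other lists: 2 of 6 node and notochord genes were higher in replicate 1, SHH with 37 against 2 counts and NOG with 20 against 2, and 1 was lower. Of 5 neuroectoderm genes 2 were higher, PAX6 by 2.74-fold (95% counting interval 1.41 to 5.73) and SOX1 by 2.46-fold, as were 2 of 17 other streak and mesoderm genes. Between the WT libraries, 3 of 6 streak factors with enough counts were at least 2-fold higher in replicate 1, against 6.51% of 19467 genes: TBXT and MESP1, on 13 and 12 counts in all, and LHX1. SP5, by 10.4-fold (95% counting interval 3.22 to 53.6), and NOG, by 9.35-fold (4.48 to 22.5), were also higher in WT replicate 1. Both ratios were larger than those between the libraries labelled CPT2 KO. FGF17 gave 2.13 (0.983 to 4.90) and FGF4 1.48 (0.904 to 2.44) between the WT libraries.

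**Figure D5:**
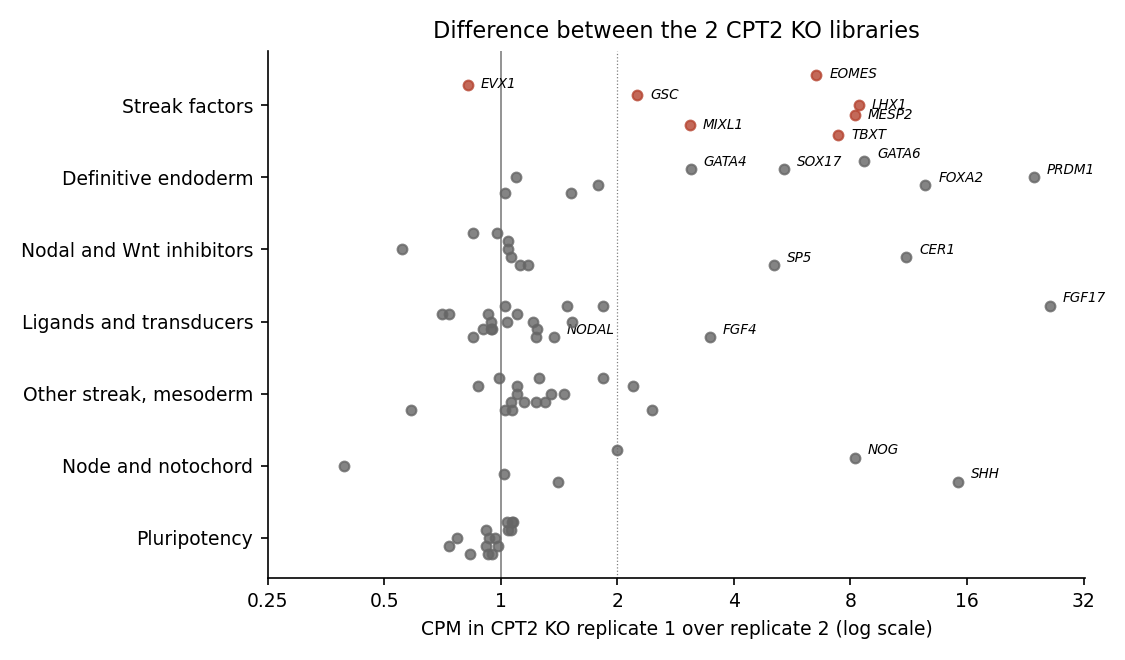
CPM in replicate 1 labelled CPT2 KO over replicate 2 (log axis) for genes with at least 10 counts in the pair, by list; streak factors are red, other lists grey, and DKK4 (69 against 0 counts) has no point. Of the red points, 6 lie right of the dotted line at 2-fold, as do 5 definitive endoderm genes, while pluripotency genes lie near 1.

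Upstream of the streak factors, 4 of 19 tested ligands and transducers rose and 0 fell in the libraries labelled CPT2 KO. Of all tested genes, 0.359% rose and 0.0569% fell. The 4 were NODAL, the ligand that induces the streak (log2 fold change 3.49, edgeR adjusted p = 0.000416), FGF8, which drives cells out of it (5.06, 0.000841), and the Wnt ligands WNT3 (2.13, 0.00646) and WNT8A (4.99, 0.0219). The list median was 0.30, against 0.0017 over all tested genes. FGF8 and WNT8A reached the count filter in 0 of the 2 libraries labelled WT, so they entered the test through the group in which they were high. WNT8A had 47 and 21 counts in the libraries labelled CPT2 KO, against 1 and 1 in those labelled WT, and was not called without replicate 1 labelled CPT2 KO or without WT replicate 1 (edgeR adjusted p = 0.250 and 0.0636), and WNT3 was not called without replicate 1 labelled CPT2 KO (0.0961). The transducers FOXH1, SMAD2, SMAD3, SMAD4 and CTNNB1 did not pass, with log2 fold changes of -0.058 to 0.30. The list median, over the genes tested in each fit, was 0.24 without replicate 1 and 0.33 without replicate 2 labelled CPT2 KO. FGF4, an early epiblast ligand, had 710 and 168 counts in the libraries labelled CPT2 KO, against 41 and 31 in those labelled WT (edgeR adjusted p = 0.393; DESeq2 adjusted p = 0.00766).

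Of 10 tested inhibitors of Nodal and Wnt, 2 rose and 0 fell, against 0.359% and 0.0569% of all tested genes. Those that rose were the Nodal antagonists LEFTY1 (log2 fold change 4.15, edgeR adjusted p = 0.00114) and LEFTY2 (4.63, 0.000841), close paralogues that may share reads. LEFTY2 and CER1 reached the count filter only in the libraries labelled CPT2 KO. CER1, an antagonist of Nodal and BMP, had 2509 and 185 counts in the libraries labelled CPT2 KO, against 3 and 0 in those labelled WT (edgeR adjusted p = 0.436; DESeq2 adjusted p = 0.00414). The list median was 1.32, with 5 of the 10 positive. Over the genes tested in each fit, the median was 0.63 without replicate 1 and 2.69 without replicate 2 labelled CPT2 KO.

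Among other streak and nascent mesoderm genes, 1 of 14 tested rose, TBX3 (log2 fold change 1.44, edgeR adjusted p = 0.0396), and 0 fell, with a median of 0.26. Of all tested genes, 0.359% rose and 0.0569% fell. TBX3 lost its call on leaving out either CPT2 KO library (edgeR adjusted p = 0.346 without replicate 1 and 0.187 without replicate 2). TBX6, a T-box factor of paraxial mesoderm, stood at 48 and 32 counts in the libraries labelled CPT2 KO, against 84 and 55 in those labelled WT (edgeR adjusted p = 0.614). MSGN1 and HAND1, factors of paraxial and lateral mesoderm, had 0 counts in all libraries.

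Of 11 definitive endoderm genes, 6 passed the filter and 0 were called in edgeR, with a median log2 fold change of 0.51, and DESeq2 called 1, GATA4 (113 and 30 counts in the libraries labelled CPT2 KO, against 5 and 4 in those labelled WT, which were under the count filter). Of all tested genes, edgeR called 0.359% higher and DESeq2 0.848%. The 11 genes summed to 49.2 and 29.5 CPM in the libraries labelled CPT2 KO, against 27.1 and 21.8 CPM in those labelled WT. SOX17, GATA6 and HNF4A were at 0 in both libraries labelled WT. SOX17 had 46 and 7 counts, GATA6 74 and 7 and HNF4A 0 and 5 in the libraries labelled CPT2 KO. SOX17 and GATA6 were already under the count filter in the fit of all 4 libraries. FOXA2 passed it there and fell under it when replicate 1 labelled CPT2 KO was left out. Calls with a CPT2 KO library left out would follow the filter for these genes and are not given for this list. The part of definitive endoderm genes in the streak factor differences was not tested.

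The remaining lists held few calls, beside 0.359% of all tested genes called higher and 0.0569% called lower. Of 5 tested node and notochord genes 0 were called (median -0.51), as of 6 T-box paralogues (-0.30), 4 homeobox paralogues (0.59), 5 fibroblast genes (0.0011) and 4 endothelial and blood genes (0.84). The T-box list leaves out TBX3, called higher above, and TBX6, which were placed among the streak and nascent mesoderm genes. Among 15 pluripotency genes ZFP42 rose (log2 fold change 0.98, edgeR adjusted p = 0.0164; median 0.11), and among 6 neuroectoderm genes SOX1 (-3.30, 0.0164) and SIX6 (-4.72, 0.0382) fell (median -0.83). SIX6 reached the count filter only in the libraries labelled WT. ZFP42, SOX1 and SIX6 each lost the call on leaving out either CPT2 KO library (edgeR adjusted p = 0.0734 to 0.358). DESeq2 also called TBX5 (log2 fold change -0.75) and SOX3 (-1.40) lower and LMX1B (1.06) and TAGLN (1.21) higher. In the list of ligands and transducers it also called GDF3 higher (1.01).

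Genes with the profile nearest to each streak factor were found by the root mean square distance of log2(CPM + 1), centred on its own mean, over the 4 libraries among 15211 tested genes with an annotated symbol. EOMES and MIXL1 were close to each other (distance 0.36), and FGF4 (0.46) came next for EOMES. EBF2 (0.36) and C9orf64 (0.40) completed the nearest 3 of MIXL1, and EBF2 (0.68) those of EOMES. For TBXT the nearest were GAD1 (0.22), FOXA2 (0.23) and STMN2 (0.29), and for GSC they were VILL (0.14), WNT8A (0.15) and CALCR (0.15). For EVX1 they were HOXC4 (0.095), ESRRB (0.11) and MAB21L1 (0.13). All were lower in both libraries labelled CPT2 KO, which follows from their choice by nearness to EVX1. For LHX1 the nearest were MYCT1 (0.21), TCHP (0.21) and MFSD6L (0.25). With only 4 libraries many genes can share a profile, and the list describes likeness of level alone.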

How the data were processed

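Total RNA of 4 libraries was sequenced. The authors deposited 1 table of whole-number read counts by gene symbol, with gene lengths. HISAT2 2.1.0, featureCounts 1.6.4 and the build hg38 (GRCh38) are named in the submitters' processing notes. The annotation release, strand setting and treatment of multi-mapping reads were not given in the sources used here. The 8 genes, the 12 other gene lists (146 genes, 98 tested), the rule for named genes and the tests were chosen with earlier results of these data known. The rule names the 8 genes, list genes called by edgeR or DESeq2 (up to 4 per list) and the 3 nearest profiles of each tested gene; SOX17, GATA6, PRDM1, SP5, FGF17, HNF4A, GDF3, SHH, NOG, PAX6, POU5F1, NANOG, FOXH1, the SMAD genes, CTNNB1, TBX6, MSGN1, HAND1, DKK4, the LDB and SSBP genes and EVX1-AS were named after their values were seen.

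Genes were kept by filterByExpr at 0.518 CPM or more in at least 2 libraries and 15 counts or more in all, leaving 17564, of which 6 were streak factors. With a library left out, a gene had to reach the filter in fewer libraries. Counts were TMM-scaled and tested with edgeR 4.0.16 (quasi-likelihood F-test, robust, group only) in R 4.3.3, with p-values adjusted by Benjamini-Hochberg across every gene tested and a threshold of 0.05. Log2 fold changes are CPT2 KO over WT, and SE is their absolute value over the root of the F statistic. Counting intervals are exact binomial at 95% and cover counting error only. Alternatives were other scalings, filters, DESeq2 1.42.0, limma-voom (limma 3.58.1), non-robust and legacy estimates, a prior count of 2, the replicate block and each library left out; the legacy estimate was added after seeing the data.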

Additional observations from a re-analysis of the deposited data

How the results depend on the processing

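The 3 other scalings, the stricter filter (which removed TBXT), the prior count of 2 and the legacy estimate, chosen after seeing the data, kept the direction of each tested streak factor and left 0 of them called; limma-voom also called 0 but turned LHX1 to -0.066. With no low-count filter 1 streak factor was called higher (GSC, log2 fold change 4.10), with 101 genes higher and 23 lower in all. DESeq2 called 4 (TBXT 3.50, MIXL1 4.22, EOMES 5.33, GSC 4.10), with 149 and 46 genes in all and 14 higher and 4 lower of the listed genes. Limma-voom called 28 and 2 genes in all and 0 lower listed genes. Without robust estimation 1 was called (MIXL1, 4.22), with 61 genes higher and 7 lower in all, and 1 listed gene was lower.

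The replicate numbers are shared by the groups, but nothing in the labels pairs the samples, and the deviations of same-numbered libraries correlated at 0.16 over tested genes. With the replicate block, 3 streak factors were called higher (TBXT 3.39, EOMES 5.10, GSC 4.05) and 1 lower (EVX1, -2.28), with 233 higher and 140 lower genes in all and 18 and 5 of the listed genes.

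With each library left out in turn, 1 to 4 streak factors were called higher and 0 to 1 lower, 23 to 490 genes in all higher and 1 to 643 lower, and 5 to 14 listed genes higher and 0 to 8 lower. The log2 fold change ranged from 1.42 to 4.33 for TBXT, 3.19 to 4.81 for MIXL1, 3.40 to 6.11 for EOMES, 3.07 to 8.48 for GSC, -2.57 to -1.92 for EVX1 and -1.83 (without replicate 1 labelled CPT2 KO) to 1.23 for LHX1. The 490 and 643 came without WT replicate 2, when replicate 1, the library that stood apart, was the WT group. The cause of these changes was not tested. Counts of 0 to 12 in the libraries labelled WT limit the precision of TBXT, EOMES, GSC, MESP1 and MESP2.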
